A study of Mus musculus with 6 samples.

Results

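Retnlg-Mmp8-high neutrophils are the tumour neutrophils in which transcripts of Retnlg, Mmp8, Wfdc21 and Stfa2l1 together make up at least 1% of all transcripts. There were 4244 of them among 74546 cells of 4 tumour libraries. The tumours were orthotopic pancreatic tumours in C57BL/6 mice, grown for some weeks after injection into the pancreas of KPC cells, pancreatic cancer cells of mouse origin. The KPC cells carried an empty vector (OE-Vector) or a construct that overexpresses MLKL (OE-MLKL), the pseudokinase that ruptures the membrane in necroptosis, and the construct was in the cancer cells only, so that the neutrophils came from hosts that did not carry it. The mice were young adults and no other treatment is stated for them. The labels name 3 samples in each group, which the study's methods describe as separate tumours, and p-values measure the spread between the libraries analysed. In the tests of genes this spread is partly or wholly pooled over genes. The libraries of OE-Vector 1 and OE-MLKL 1, 2 and 3 are described here, and OE-Vector 2 and 3 were not analysed here.

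Droplet-based 3' single-cell RNA sequencing counts each captured transcript by a molecular tag (UMI). Barcodes counted as cells where they held 500 UMIs or more, over 200 detected genes and less than 10% of UMIs from mitochondrial genes. The members were cells in which S100a8, S100a9, Csf3r, Cxcr2, Hdc and Il1r2 made up at least 1% of UMIs, with at most 1 UMI of the macrophage genes C1qa, C1qb and C1qc, 0 UMIs of the epithelial genes Krt8 and Krt18, under 0.5% of UMIs from the interferon-induced genes Rsad2, Ifit1, Ifit3 and Isg15, and at least 1% from the 4 genes named first. Cells that met all clauses but the last are called other neutrophils, and there were 16513. Cells over the interferon limit, whatever their 4-gene share, are called interferon-high neutrophils, and there were 478. The members were thus chosen by the measured UMI shares of these genes. The genes of the rule are described without a test between members and other cells. Only the comparison of OE-MLKL with OE-Vector within members kept them.

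Neutrophils are short-lived granulocytes that leave the bone marrow with preformed granules, enter the blood and move into inflamed tissue and tumours. Their secondary and tertiary granules hold antimicrobial proteins and matrix-degrading enzymes whose transcripts are made mostly during maturation and decline as the cells age in tissue. Retnlg encodes a resistin-like secreted protein of mouse myeloid cells, Mmp8 the neutrophil collagenase of the granules, Wfdc21 a small whey acidic protein domain protein, and Stfa2l1 a stefin A, an inhibitor of cysteine proteases. S100a8 and S100a9 encode the calprotectin subunits, which are among the most abundant neutrophil proteins.

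Retnlg (ENSMUSG00000022651) spans 48872621 to 48874496 on chromosome 16, Stfa2l1 (ENSMUSG00000059657) 36156811 to 36161953 on chromosome 16, and Mmp8 (ENSMUSG00000005800) 7558456 to 7568485 on chromosome 9, all on the plus strand of GRCm38. Wfdc21 (ENSMUSG00000051748) spans 83746940 to 83752642 on chromosome 11, plus strand. The promoters of Retnlg, Mmp8 and Stfa2l1 are printed because their products define the cells, that of Rdh12 because it was among the genes that rose with them, and that of Ccl3 because it fell most among genes with a mean of at least 50 CPM. Each is the 250 bases before the start of the gene in RefSeq (GRCm38.p6), 5' to 3' on the strand of the gene, and capitals mark matches to the C/EBP-type motif TTGCNNAA or its reverse complement TTNNGCAA.
Retnlg, chr16:48872358-48872607, plus strand: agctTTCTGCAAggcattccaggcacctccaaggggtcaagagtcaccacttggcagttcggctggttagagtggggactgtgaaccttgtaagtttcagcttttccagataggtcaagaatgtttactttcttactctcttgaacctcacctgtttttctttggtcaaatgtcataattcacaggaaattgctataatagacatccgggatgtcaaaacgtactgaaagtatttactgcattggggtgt
Mmp8, chr9:7558179-7558428, plus strand: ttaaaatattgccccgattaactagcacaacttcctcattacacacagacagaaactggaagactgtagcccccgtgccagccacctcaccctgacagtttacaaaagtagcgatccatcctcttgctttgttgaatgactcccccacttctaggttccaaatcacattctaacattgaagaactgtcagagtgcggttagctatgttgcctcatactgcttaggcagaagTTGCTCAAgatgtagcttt
Stfa2l1, chr16:36156561-36156810, plus strand: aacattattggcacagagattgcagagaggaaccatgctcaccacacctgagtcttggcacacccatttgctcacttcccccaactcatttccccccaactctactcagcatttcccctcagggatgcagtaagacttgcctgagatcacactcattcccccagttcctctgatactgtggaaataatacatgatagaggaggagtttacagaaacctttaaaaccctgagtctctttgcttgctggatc
Rdh12, chr12:79208663-79208912, plus strand: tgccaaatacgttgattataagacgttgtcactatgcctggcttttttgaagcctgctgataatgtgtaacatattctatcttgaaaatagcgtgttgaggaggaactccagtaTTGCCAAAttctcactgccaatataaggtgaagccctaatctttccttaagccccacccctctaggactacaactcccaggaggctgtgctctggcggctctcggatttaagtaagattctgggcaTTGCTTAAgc
Ccl3, chr11:83649379-83649628, minus strand: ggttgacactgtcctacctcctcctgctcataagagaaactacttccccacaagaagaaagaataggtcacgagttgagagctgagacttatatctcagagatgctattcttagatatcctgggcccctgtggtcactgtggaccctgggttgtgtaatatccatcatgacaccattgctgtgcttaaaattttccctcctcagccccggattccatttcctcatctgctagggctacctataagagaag
The motif, searched on both strands, was in 9.56% of all 32851 promoter windows of this length. It occurred once each in the Retnlg and Mmp8 windows and not in that of Stfa2l1. Of the 12 genes with the largest rise described below, 5 had it (Ly6g, Ngp, Cstdc5, Stfa1 and Rdh12), and of the 12 with the largest fall 7 had a window and 0 of these had it. Cstdc5 and Stfa1 have transcripts 96.8% identical and the same match, so the 5 are not independent and the share was not tested. A match describes these letters and shows no binding.

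Members were found in every library, and they were the smallest share in the library labelled OE-Vector. There were 254 in OE-Vector 1, 1757 in OE-MLKL 1, 1506 in OE-MLKL 2 and 727 in OE-MLKL 3. They made up 1.65% of all cells in OE-Vector 1 (95% exact binomial interval 1.46 to 1.87), 9.51% (9.09 to 9.95), 6.53% (6.21 to 6.86) and 4.12% (3.83 to 4.43) in OE-MLKL 1, 2 and 3. These intervals cover counting error only. The OE-MLKL mean was 6.72% ± 2.70 (SD, n = 3), and the OE-Vector value lay below all 3. In an exact two-sided permutation test the difference had p = 0.5, and with 1 library against 3 the smallest p this design allows is 0.25, so the test could not pass a threshold of 0.05.

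As a share of neutrophils (members and other neutrophils together) the order was similar. It was 5.57% in OE-Vector 1 (95% exact binomial interval 4.93 to 6.28) and 36.7% (35.4 to 38.1), 20.5% (19.5 to 21.4) and 17.9% (16.8 to 19.2) in OE-MLKL 1, 2 and 3, with an OE-MLKL mean of 25.04% ± 10.2 (SD, n = 3) and an exact permutation p of 0.5. Depth moved with these values. The members of OE-MLKL 1 and 2 had median UMI counts of 802 and 880, against 1434 in OE-Vector 1 and 1710 in OE-MLKL 3. The C1q and keratin limits are numbers of UMIs, not shares, and removed unequal parts of the cells that met the neutrophil clause. These went from 6430 to 4907 in OE-Vector 1, 5569 to 4802 in OE-MLKL 1, 9026 to 7387 in OE-MLKL 2 and 7299 to 4139 in OE-MLKL 3. With at least 1000 UMIs per cell the shares of all cells were 1.77%, 3.62%, 3.20% and 4.38%, so that the ratio of the OE-MLKL mean to OE-Vector fell from 4.07 to 2.11. As a share of neutrophils the ratio at 1000 UMIs was 4.75. After every cell was thinned to 500 UMIs and the rule applied again, the shares were 2.28%, 10.8%, 7.73% and 6.98%, a ratio of 3.74. OE-Vector 1 had the lowest share of members in each of these settings, and the part of depth and of these limits in the difference was otherwise not tested.

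**Figure D1:**
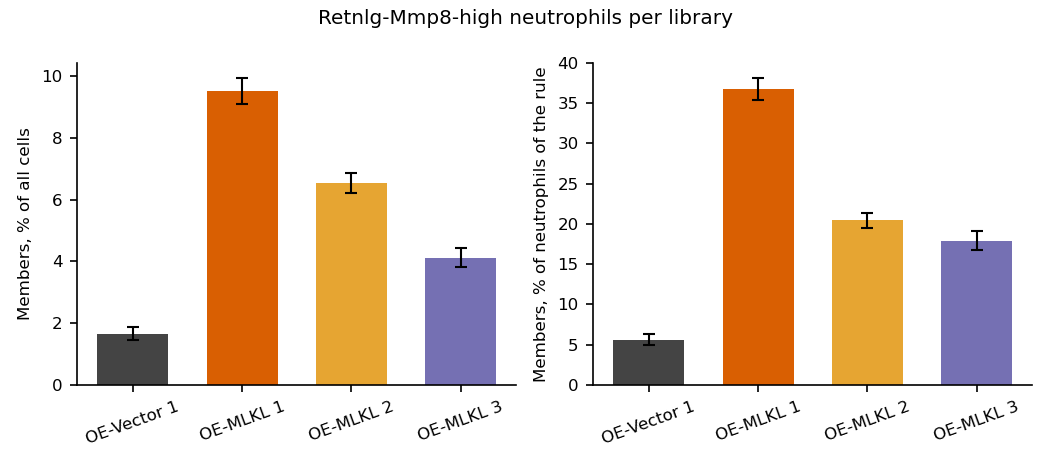
Members as a percentage of all cells (left) and of members plus other neutrophils (right) in each library, with exact 95% binomial intervals as bars. OE-Vector 1 was lowest in both, at 1.65% and 5.57%, and OE-MLKL 1 highest, at 9.51% and 36.7%.

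The mouse Mlkl gene, which the matrices count, did not separate the groups. Over all cells of OE-Vector 1 it had 13.7 CPM (UMIs scaled to a total of 1000000), against 8.09, 12.1 and 15.8 for OE-MLKL 1, 2 and 3, so that the OE-Vector value lay within the OE-MLKL range. The study's methods name the mouse gene as the one overexpressed in the injected cells, and a higher Mlkl level over all cells was not seen in the libraries labelled OE-MLKL. The level in the cancer cells alone was not measured here. The 3' end of the construct is not given in the sources used here. Members held 3, 2, 6 and 6 Mlkl UMIs in the 4 libraries. Group names below are therefore those of the labels, and a direction between them is a direction between libraries so labelled. Between 73 and 134 cell barcodes were shared by each pair of libraries, and in 0 cases was the same barcode a member in both. Without shared barcodes the shares of all cells were 1.64%, 9.52%, 6.53% and 4.12%.

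The genes of the rule were at these levels, which the rule itself sets apart. In plain CPM, Retnlg stood at 16652, 21532, 18263 and 25110 in the members of OE-Vector 1 and OE-MLKL 1, 2 and 3, and at 636, 1484, 1006 and 1201 in other neutrophils. Mmp8 stood at 928, 1586, 1740 and 1473 in members against 132, 588, 496 and 265. Retnlg thus gave most of the signal, 81.0%, 75.8%, 71.8% and 86.2% of the 4-gene UMIs of members, against 46.1%, 41.0%, 36.6% and 58.3% in other neutrophils. Wfdc21 was at 1319 to 3267 CPM in members and 294 to 1040 in other neutrophils, and Stfa2l1 at 1217 to 3349 and 299 to 623.

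Of the neutrophil genes of the rule, S100a8 was at 61647, 44277, 47438 and 41153 CPM in members against 23662, 21868, 25882 and 18347 in other neutrophils, and S100a9 at 111470, 50086, 74096 and 76028 against 35300, 25009, 35535 and 29741. Members had the higher level of both calprotectin genes in every library, and of Cxcr2, the receptor for CXC chemokines that draw neutrophils, at 1697, 1271, 1045 and 1509 CPM against 1125, 1194, 690 and 1197. For Csf3r, the G-CSF receptor, the levels were 919 to 2107 CPM in members and 958 to 2033 in other neutrophils, for Hdc, the histamine-forming enzyme, 1038 to 2787 and 1149 to 2734, and for Il1r2, the decoy receptor for interleukin-1, 795 to 2362 and 1023 to 2169. Since the rule used these genes, the values only describe it.

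Seen cell by cell, after thinning to 500 UMIs, Retnlg had a UMI in 96.5%, 96.0%, 92.9% and 99.6% of members and Mmp8 in 27.95%, 48.0%, 48.6% and 40.3%. Unthinned, the Mmp8 shares were 53.1%, 61.6%, 63.3% and 69.1%. In cells outside the neutrophil clause, which should lack it, thinned Mmp8 shares were 0.894%, 0.675%, 0.826% and 0.503%, at median depths of 7578.5, 8964.5, 8597 and 7950 UMIs before thinning. The 4 genes made up 2.06%, 2.84%, 2.54% and 2.91% of the summed UMIs of members, and 0.0262%, 0.0552%, 0.0493% and 0.0831% in barcodes with no more than 100 UMIs, taken here as free RNA.

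The median 4-gene share in members was 1.59%, 2.03%, 1.78% and 2.21% of UMIs and in other neutrophils 0.0481%, 0.315%, 0.178% and 0.0936%. Just inside the limit, at 1 to 1.1%, lay 37, 131, 118 and 64 members, and just outside, at 0.9 to 1%, lay 34, 133, 160 and 59 other neutrophils. Only 16 members of OE-Vector 1 had a share of 4% or more, against 328, 225 and 143 in OE-MLKL 1, 2 and 3.

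The libraries held 150591289 to 169978362 UMIs in all, and the members 384883 to 1596943. Markers of other cells were found in the members at the levels given here. The 9 macrophage markers summed to 1026 to 1862 CPM in members, 1285 to 2494 in other neutrophils, 3345 to 5438 over all cells and 5044 to 8119 in the barcodes of free RNA. At least 1 UMI of them was in 75.6%, 58.7%, 60.2% and 93.4% of members of OE-Vector 1 and OE-MLKL 1, 2 and 3. The 12 T and NK cell markers summed to 48.8 to 84.6 CPM against 84.1 to 310 in other neutrophils, with Ncr1 at 0. The 7 B cell markers summed to 8.14 to 109 CPM in members and 26.7 to 187 in other neutrophils, the 8 fibroblast markers to 54.6 to 157 and 98.8 to 239, and the 9 epithelial markers to 51.3 to 126 and 59.5 to 147. Of single markers Pax5, Cd209a, Emcn, Prg2, Epx, Mcpt8 and Ms4a2 and all 5 erythroid markers were at 0 in members, while the other markers of these lists were not. Doublet scores marked 4.33%, 6.89%, 10.5% and 8.25% of members and 11.5%, 7.37%, 12.3% and 8.57% of other neutrophils. Acinar markers summed to 26.0, 281, 99.7 and 6.74 CPM in members and 66.5, 314, 123 and 7.33 in other neutrophils. In plain CPM, the sums of macrophage, T and NK cell, B cell, dendritic cell, fibroblast, epithelial and acinar markers were each lower in members than in the other neutrophils of the same library in 4 of 4 libraries. These totals include the genes of the rule. Its neutrophil genes made up 18.0%, 10.0%, 12.7% and 12.4% of UMIs in members. In other neutrophils they made up 6.51%, 5.25%, 6.65% and 5.54%. In the barcodes of free RNA they made up 0.580%, 0.383%, 0.531% and 0.904%, against the limit of 1% in the neutrophil clause. In the fit below, without the genes of the rule, 4 of 6 epithelial and 3 of 5 acinar markers had log2 fold changes above 0. So did 3 of 9 macrophage and 1 of 8 T and NK cell markers, and 0 of 6 fibroblast markers. The endothelial sum was lower in 3 of 4, with OE-MLKL 3 at 13.5 against 12.2 CPM. The 6 monocyte markers stood close together, at 314, 383, 394 and 553 CPM in members and 340, 397, 385 and 559 in other neutrophils, and in the fit below the 4 that were tested had scaled levels higher in members in 4 of 4 libraries (median log2 fold change 0.31), of which Ly6c2, a surface antigen of monocytes, was called (0.85). The part of these differences in the results below was not tested beyond the alternatives without scored doublets and without cells holding UMIs of other lineages. The latter kept only 41, 616, 528 and 33 members in OE-Vector 1 and OE-MLKL 1, 2 and 3, so calls lost there were lost with far fewer cells.

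What set members apart outside the rule was asked by comparing their summed UMIs with those of other neutrophils of the same library. Most tested genes of the stefin, secondary granule and neutrophil identity lists were higher in members, and 15 of 30 genes of the tumour-retained neutrophil list were lower. The genes of the rule were removed before scaling, the library was a term of the model, and 9064 genes were tested with the edgeR quasi-likelihood test. At a Benjamini-Hochberg adjusted p under 0.05, 1107 genes rose and 545 fell in members, or 18.2% of genes tested (12.2% higher and 6.01% lower). Whatever the test, 19.6% of genes were higher in members in 4 of 4 libraries and 19.2% lower. The fit without the library term called 0 genes, with 854 at an unadjusted p under 0.05. With scaling by library size alone 581 genes rose and 2084 fell, and the median log2 fold change of all genes was -0.27 in place of -0.03. The other transcripts tested are from the same cells that the rule selected, so each value says how a gene went with the 4-gene share. Members also had more UMIs per cell, at medians of 1434, 802, 880 and 1710 against 1174, 689, 740 and 1305.5 in other neutrophils. Their median mitochondrial shares were 0.941%, 1.09%, 1.03% and 1.40% against 1.12%, 1.24%, 1.25% and 1.63%. Their ribosomal protein sums were 8907, 20914, 16597 and 9014 plain CPM against 15092, 27015, 22030 and 13295. The part of these differences was not tested beyond the alternatives by depth. Prtn3, Nkg7, Vnn3, Olfm4, Siglecf, Gda, Clec4d, Arg2, Ffar2, Alox5, Ltc4s, Pkm and Il1a are named below because of their values.

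The largest rises were in the stefin A family. Levels here and below are CPM scaled by the TMM method (scaled CPM). Each comparison has its own scaling, and that of OE-MLKL with OE-Vector within members includes the genes of the rule in the totals. Scaled CPM of different comparisons are therefore not on the same scale. Stfa3 had 53.9, 106, 194 and 23 scaled CPM in members of OE-Vector 1 and OE-MLKL 1, 2 and 3 against 0.582, 14.1, 12.3 and 1.17 in other neutrophils, a log2 fold change of 3.80 ± 0.26 (SE; edgeR Benjamini-Hochberg adjusted p = 5.7e-08). Stfa2 had 95.3, 344, 765 and 108 against 5.82, 42.8, 48.1 and 8.57 scaled CPM, a log2 fold change of 3.62 ± 0.17 (SE; edgeR Benjamini-Hochberg adjusted p = 1.2e-09). Members were higher in every library, and among members both genes were highest in OE-MLKL 2. Cstdc5, Cstdc4, Stfa1 and Csta2 rose by log2 fold changes of 3.13, 2.39, 2.24 and 2.17, with Cstdc4 the most abundant at 1900 to 3490 scaled CPM in members and 281 to 858 in other neutrophils.

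The 10 stefin and cystatin genes of this kind lie side by side on chromosome 16 from 36119946 to 36455392 (GRCm38). Their transcripts resemble each other, 96.8% identical between Cstdc5 and Stfa1. With Stfa2l1, a gene of the rule, the identity was 80.0% for Stfa3, 77.1% for Cstdc4, 67.1% for Stfa2, 55.4% for Stfa1 and Cstdc5 and 53.7% for Csta2. Identity was counted over the longer transcript of each pair, so a difference in length lowers it. The Stfa1, Cstdc5 and Csta2 transcripts have 617, 619 and 639 bases against 419 for Stfa2l1, so these values do not rank read sharing. The counts of these genes are uncertain where reads are shared, and how far sharing with Stfa2l1 enters each rise was not tested. Cstdc5 also overlaps Gm15845 on the other strand. Cstb, the cystatin B gene on chromosome 10, was the one member of the list of 6 tested stefins and cystatins that fell (log2 fold change -0.55 ± 0.16, SE; edgeR Benjamini-Hochberg adjusted p = 0.028), and it was not called under 4 of 17 alternatives, among them those without OE-Vector 1, where it stood at 389 scaled CPM in members and 1142 in other neutrophils.

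**Figure D2:**
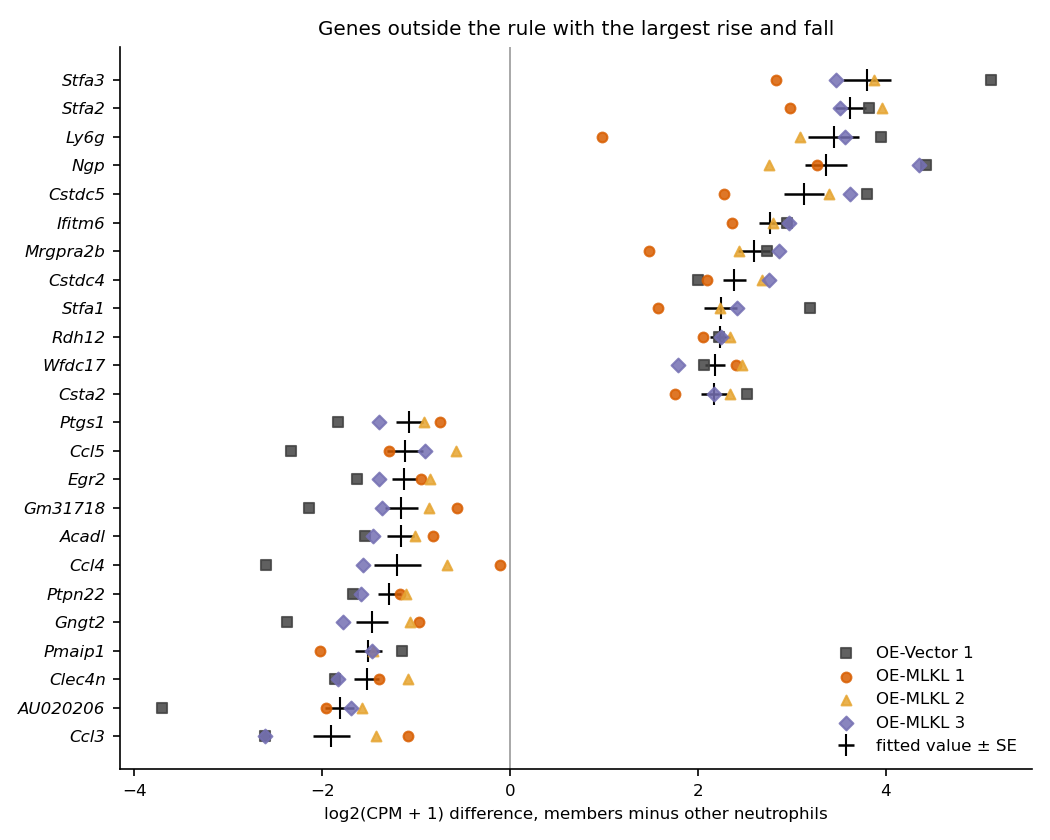
Difference on the log2(CPM + 1) scale between members and other neutrophils for the 12 genes with the largest rise and the 12 with the largest fall outside the rule; each symbol is 1 library, and the black tick is the fitted log2 fold change with its standard error. Ly6g was least raised in OE-MLKL 1 (0.98), and Ccl4 differed by only -0.10 there.

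Of 12 tested genes of secondary granules 9 rose and 0 fell, with a median log2 fold change of 0.99 against -0.03 over all genes. Ngp, the neutrophilic granule protein, had 49.7, 1768, 499 and 107 scaled CPM in members against 1.36, 183, 73.2 and 4.29, a log2 fold change of 3.36 ± 0.22 (SE; edgeR Benjamini-Hochberg adjusted p = 4.1e-08). Members exceeded other neutrophils in each library, though the OE-MLKL 1 level of other neutrophils was above the member level of OE-Vector 1 and OE-MLKL 3. Lcn2, the iron-siderophore binding lipocalin, had 3546, 5187, 4564 and 3059 against 690, 2265, 1794 and 693 scaled CPM, and the ranges did not overlap (log2 fold change 1.75 ± 0.15, SE; edgeR Benjamini-Hochberg adjusted p = 6.3e-07). Pglyrp1, a peptidoglycan-binding protein, rose by 1.48, Lyz2, lysozyme, by 1.22, Hp, haptoglobin, by 1.09 and Cd177, a surface protein of neutrophils, by 0.89 on the log2 scale. Olfm4, olfactomedin, was higher in 3 of 4 libraries.

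Chil3, a chitinase-like lectin placed in the same granules, did not pass the test. It had 37.3, 8069, 7580 and 1437 scaled CPM in members and 66.0, 7422, 8745 and 2895 in other neutrophils, a log2 fold change of -0.39 ± 0.14 (SE; edgeR Benjamini-Hochberg adjusted p = 0.071), and it followed the library far more than the state. Under 7 of 17 alternatives it was called lower, with scaling by library size alone among them. Of 9 genes of primary granules only Prtn3, proteinase 3, and Nkg7, a granule membrane protein also of NK cells, were abundant enough to test. Prtn3 had 8.29, 8.98, 3.38 and 2.87 scaled CPM in members against 5.44, 27.1, 7.73 and 7.21, lower in 3 of 4 libraries, and was called lower, as was Nkg7 at 12.4, 2.25, 12.7 and 14.4 against 35.5, 9.81, 18.9 and 17.9. Both were at low levels, and the calls were lost under 5 and 9 of 14 alternatives.

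Of 14 tested genes of tertiary granules and secretory vesicles 10 rose and 0 fell. Adam8, a membrane protease, had 1218, 339, 355 and 633 scaled CPM in members against 386, 135, 112 and 220 (log2 fold change 1.55 ± 0.10, SE; edgeR Benjamini-Hochberg adjusted p = 3.5e-08). Mmp9, the gelatinase, had 2349, 863, 949 and 1556 against 1757, 429, 529 and 991, a smaller log2 fold change of 0.73 ± 0.10 (SE; edgeR Benjamini-Hochberg adjusted p = 5.2e-05). Members were higher for both genes in all 4 libraries. Mmp25, a membrane-bound metalloproteinase, rose by 1.42, Vnn3, a pantetheinase, by 1.90, and the formyl peptide receptor genes Fpr1 and Fpr2 by 1.38 and 0.82 on the log2 scale.

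Genes by which neutrophils are recognised rose almost without exception. Of 18 tested genes of neutrophil identity outside the rule 17 rose and 0 fell, with a median log2 fold change of 0.97. This list, like the others, was chosen with earlier results of these data known. Slpi, a secreted inhibitor of serine proteases, had 4636, 963, 2190 and 2987 scaled CPM in members against 1405, 318, 523 and 798 (log2 fold change 1.83 ± 0.09, SE; edgeR Benjamini-Hochberg adjusted p = 1.5e-09). G0s2, an inhibitor of lipolysis, had 7076, 666, 823 and 3038 against 3659, 255, 282 and 1256 (log2 fold change 1.28 ± 0.09, SE; edgeR Benjamini-Hochberg adjusted p = 1.4e-07). Ly6g, the surface antigen used to sort mouse neutrophils, had 278, 17.2, 39.7 and 166 scaled CPM in members against 17.1, 8.24, 3.77 and 13.1, a log2 fold change of 3.44 ± 0.27 (SE; edgeR Benjamini-Hochberg adjusted p = 2.9e-07). Its level was low in all libraries, and unthinned it had a UMI in 13.8%, 1.25%, 2.86% and 15.8% of members and 1.56%, 0.628%, 0.324% and 1.65% of other neutrophils. Thinned to 500 UMIs these shares were 3.54%, 0.569%, 0.996% and 6.19% of members and 0.535%, 0.430%, 0.205% and 0.722% of other neutrophils. Mrgpra2b, a Mas-related G protein-coupled receptor, rose by 2.60 and Clec4d, a C-type lectin, by 0.95 on the log2 scale.

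The genes Ifitm6, Rdh12 and Wfdc17 were also among the 12 largest rises. Ifitm6, a member of the interferon-induced transmembrane family, had 385, 806, 635 and 556 scaled CPM in members against 49.1, 155, 90.4 and 70.1, with no overlap (log2 fold change 2.77 ± 0.12, SE; edgeR Benjamini-Hochberg adjusted p = 8.3e-10). Rdh12, a retinol dehydrogenase whose promoter is printed above, had 311, 317, 244 and 669 against 65.8, 75.4, 47.3 and 140 (log2 fold change 2.23 ± 0.11, SE; edgeR Benjamini-Hochberg adjusted p = 1.2e-09). Wfdc17, a whey acidic protein domain protein like Wfdc21, had 3057, 4954, 3947 and 4830 against 727, 934, 714 and 1396 (log2 fold change 2.18 ± 0.10, SE; edgeR Benjamini-Hochberg adjusted p = 1.2e-09). The per-library differences of Rdh12 spanned only 2.06 to 2.34, the narrowest of those printed here for the largest rises.

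Receptors for leaving the blood were mostly called higher, and those for sensing only in part. Of 17 trafficking receptor genes 12 rose and 1 fell, and of 19 genes of mature circulating neutrophils 12 rose and 0 fell. Selplg, the ligand of P-selectin, had 1554, 641, 738 and 973 scaled CPM in members against 764, 345, 377 and 550 (log2 fold change 0.93 ± 0.09, SE; edgeR Benjamini-Hochberg adjusted p = 1.8e-06), and the integrin genes Itgal and Itgb2 rose by 1.13 and 0.96 on the log2 scale. Cxcr4, a receptor that rises on aged neutrophils, had 655, 368, 425 and 313 against 791, 348, 332 and 417 and did not pass the test (log2 fold change -0.05 ± 0.12, SE; edgeR Benjamini-Hochberg adjusted p = 0.81). Icam1, an adhesion ligand, was the one that fell (log2 fold change -1.04). Anxa1, annexin A1, and Gda, guanine deaminase, rose by 1.60 and 1.36.

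Of 21 colony-stimulating factor and cytokine receptor genes 7 rose and 0 fell, Csf2rb, the common beta chain for GM-CSF, by 0.63 and Il17ra by 0.52 on the log2 scale. Of 15 pattern receptor genes 8 rose and 1 fell, Tlr2 by 0.56 and Cd14 by 0.55, while Clec4n, the fungal lectin receptor Dectin-2, fell by 1.53. Of 11 interleukin-1 genes 6 rose and 1 fell. Il1rap, the accessory chain of the interleukin-1 receptor, had 240, 76.4, 153 and 224 scaled CPM in members against 157, 45.5, 60.7 and 109 (log2 fold change 0.97 ± 0.13, SE; edgeR Benjamini-Hochberg adjusted p = 4.0e-05). Il1b itself, at 17450, 9235, 8564 and 13116 against 12770, 7979, 6930 and 11285, rose by only 0.30 ± 0.07 (SE; edgeR Benjamini-Hochberg adjusted p = 0.0053), and this call was lost with scaling by library size alone and under 5 other alternatives. Il1a was the one gene of the list called lower, in 3 of 4 libraries, and this call was lost under 7 of 16 alternatives.

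Among genes with a mean of at least 50 CPM that were lower in 4 of 4 libraries, Ccl3 fell most. Ccl3, which draws monocytes and T cells, had 539, 283, 277 and 180 scaled CPM in members against 3302, 603, 744 and 1106 in other neutrophils, and the ranges did not overlap (log2 fold change -1.90 ± 0.20, SE; edgeR Benjamini-Hochberg adjusted p = 4.6e-06). Ccl4, its neighbour on chromosome 11, had 510, 284, 250 and 314 against 3094, 305, 399 and 934 (log2 fold change -1.20 ± 0.25, SE; edgeR Benjamini-Hochberg adjusted p = 0.0031), and the call was lost in DESeq2 and without OE-MLKL 3. The gap in scaled CPM was widest in OE-Vector 1 for both genes, and its other neutrophils held the most of each. As a fold, the Ccl3 gap was about as large in OE-MLKL 3. Ccl5 fell by 1.12 on the log2 scale, but by only 0.03 with scored doublets removed and by 0.59 without cells holding UMIs of other lineages, neither of which passed the test, and T and NK cell markers were lower in members too, as given above.

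Of 30 tested genes described in tumour-retained neutrophils 15 fell and 5 rose. Tnf had 141, 133, 249 and 151 scaled CPM in members against 450, 159, 434 and 296, lower in every library (log2 fold change -0.85 ± 0.15, SE; edgeR Benjamini-Hochberg adjusted p = 0.00073). Csf1, the macrophage growth factor, fell by 0.99 and Siglecf, a lectin of eosinophils and long-lived tumour neutrophils, by 1.63 on the log2 scale, the latter from 105, 14.1, 21.1 and 53.8 to 8.29, 3.74, 11.8 and 19.2 scaled CPM, a call lost without cells holding UMIs of other lineages. The 10 eosinophil, basophil and mast cell markers, Siglecf among them, summed to 12.99, 34.4, 14.6 and 21.7 CPM in members and 112, 25.8, 32.0 and 61.3 in other neutrophils, lower in members in 3 of 4 libraries. Ffar2, a receptor for short-chain fatty acids, fell by 1.28. Against them Cxcl2, a ligand of Cxcr2, rose by 0.47 ± 0.12 (SE; edgeR Benjamini-Hochberg adjusted p = 0.0087) and was higher in 3 of 4 libraries, a call lost under 5 of 17 alternatives with library size alone and leaving out OE-MLKL 2 or OE-MLKL 3 among them, and Arg2, an arginase, rose by 1.11.

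**Figure D3:**
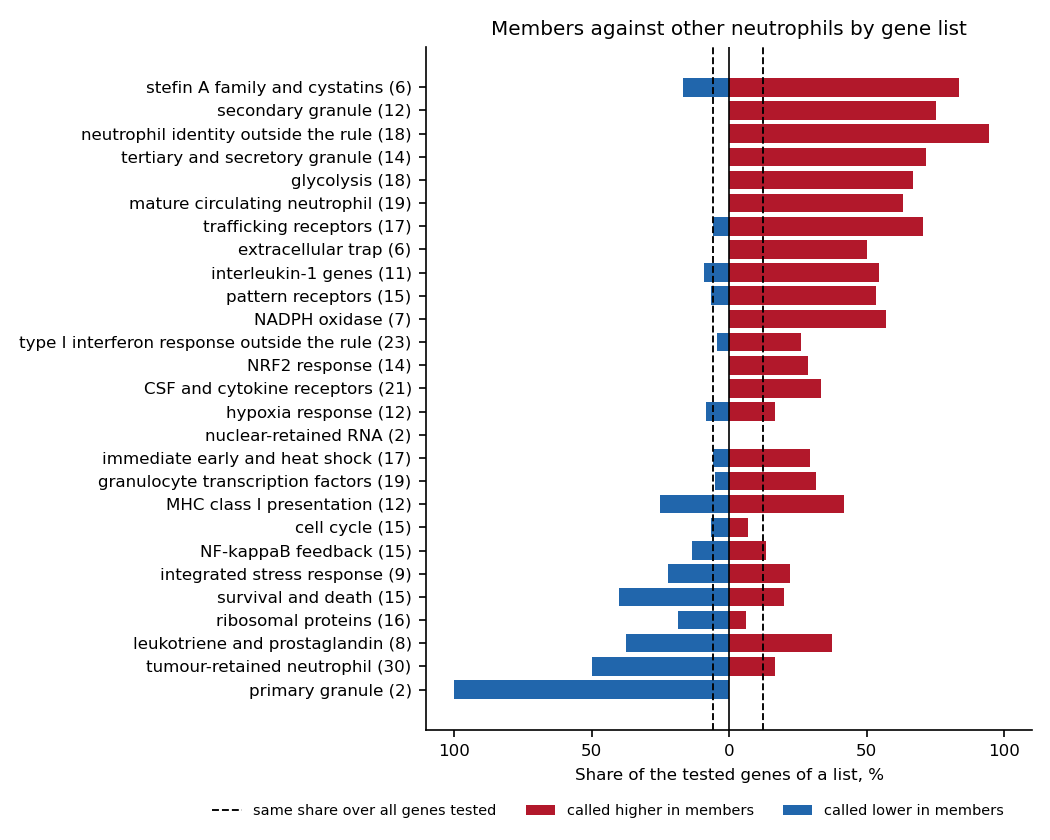
Percentage of the tested genes of each list that were called higher (right) or lower (left) in members, with the number tested in brackets and dashed lines at the shares over all genes, 12.2% and 6.01%. Lists of neutrophil identity, stefins and secondary and tertiary granules lie mostly to the right, and those of tumour-retained neutrophils and primary granules (2 genes) to the left.

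The other named falls were of several kinds. AU020206, a long non-coding RNA, had 4.14, 41.9, 67.5 and 35.5 scaled CPM in members against 66.2, 166, 203 and 117 (log2 fold change -1.81 ± 0.15, SE; edgeR Benjamini-Hochberg adjusted p = 5.0e-07). Pmaip1, the death-promoting protein Noxa, had 108, 11.2, 32.9 and 69.0 against 240, 48.7, 92.2 and 193 (log2 fold change -1.51 ± 0.14, SE; edgeR Benjamini-Hochberg adjusted p = 2.1e-06). Both were lower in members in 4 of 4 libraries. Gngt2, a G protein subunit, Ptpn22, a tyrosine phosphatase, Acadl, an acyl-CoA dehydrogenase, Egr2, a transcription factor, and the non-coding Gm31718 fell by 1.47, 1.28, 1.16, 1.13 and 1.16 on the log2 scale.

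Of 15 genes of survival and death 6 fell and 3 rose. Besides Pmaip1, the death effector Bax fell by 0.73 and Bcl2a1b, an anti-death gene whose near-identical copies can share reads, by 0.77. The Bcl2a1b call was lost without OE-MLKL 3, with log2 fold changes of -1.01 to -0.51 over the alternatives, and the gene is among those with an interaction given below, at 270 and 1051 scaled CPM in members and other neutrophils of OE-Vector 1 but 545 and 591 in OE-MLKL 1. Mcl1, on which neutrophil survival depends, rose from 3122, 2465, 1753 and 2297 to 4847, 2916, 2250 and 3218 scaled CPM (log2 fold change 0.43 ± 0.08, SE; edgeR Benjamini-Hochberg adjusted p = 0.0013), a call lost with scaling by library size alone and without cells holding UMIs of other lineages. Genes for and against death were thus found on the lower side. Of 8 genes of leukotrienes and prostaglandins 3 rose and 3 fell. The leukotriene genes Alox5ap and Alox5 rose by 0.93 and 0.56, the Alox5 call being lost with counts thinned to 500 UMIs and without cells holding UMIs of other lineages, while Ptgs1 and Ptgs2, the cyclooxygenases, fell by 1.07 and 0.35, the Ptgs2 call being lost under 6 of 17 alternatives, and Ltc4s, the leukotriene C4 synthase, had 0, 12.7, 10.97 and 1.92 scaled CPM in members against 71.4, 43.6, 42.1 and 21.0.

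Metabolic and effector genes rose in part. Of 18 glycolysis genes 12 rose and 0 fell, with a median log2 fold change of 0.62. Slc2a3, a glucose transporter, had 1139, 112, 138 and 363 scaled CPM in members against 202, 54.2, 40.4 and 112 (log2 fold change 1.81 ± 0.16, SE; edgeR Benjamini-Hochberg adjusted p = 1.5e-06), and the members of each library were above its other neutrophils. Slc16a3, a lactate exporter, Gpi1, an isomerase, and Pkm, pyruvate kinase, rose by 1.21, 1.09 and 0.73. Of 12 hypoxia genes only 2 rose and 1 fell, Hilpda, a call lost under 8 of its 17 alternatives. Of 7 NADPH oxidase genes 4 rose, among them Cyba by 0.55, and of 6 tested extracellular trap genes 3 rose, among them Padi4, the enzyme that citrullinates histones, from 24.1, 7.46, 17.5 and 30.6 to 82.9, 29.2, 52.3 and 102 scaled CPM (log2 fold change 1.72 ± 0.15, SE; edgeR Benjamini-Hochberg adjusted p = 6.2e-07). Of 14 NRF2 genes 4 rose, Mgst1, a glutathione transferase, by 1.76 and Slc7a11, the cystine importer, by 1.002.

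The remaining lists had calls in both directions. Of 23 tested type I interferon genes outside the rule 6 rose and 1 fell, Slfn4 by 0.97, Ifitm3 by 0.76 and Irf7 by 0.56, the Irf7 call lost under 5 alternatives and that of Ifitm3 without OE-MLKL 3, its fold change being 0.44 without OE-Vector 1, and since the rule limits 4 interferon genes this list is not free of it. Of 12 MHC class I genes 5 rose and 3 fell, H2-D1 by 0.38 on the higher side, a call lost under 6 of 17 alternatives with library size alone among them, and H2-K1 by 0.35 on the lower, a call lost without OE-MLKL 3. Of 15 NF-kappaB feedback genes 2 rose and 2 fell, of 9 integrated stress genes 2 and 2, of 17 immediate early and heat shock genes 5 and 1, of 15 cell cycle genes 1 and 1, and of 16 ribosomal protein genes 1 and 3. Of 19 transcription factor genes 6 rose and 1 fell, Spi1, which encodes PU.1, by 0.79, Cebpd by 0.60 and Cebpb by 0.40, and Hif1a rose by 0.72. The Cebpb call was lost under 5 of 17 alternatives, with library size alone, thinned counts and without OE-MLKL 3 among them. Without cells holding UMIs of other lineages, where 417 genes were called in all, the calls of Cebpb, Cebpd, Hif1a, Cd177, Tlr2 and Il17ra were each lost, with log2 fold changes still above 0.

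Members also differed from interferon-high neutrophils. With 4382 genes tested in the same way, 266 rose and 227 fell in members, or 11.3% of genes tested (6.07% higher and 5.18% lower). Most interferon-high cells were in OE-Vector 1 (350), with 19, 23 and 86 in OE-MLKL 1, 2 and 3. Ngp had 12, 2362, 591 and 112 UMIs in members and 1, 0, 0 and 0 in interferon-high cells, and Lcn2 and Ly6g were higher in members too, though each of these 2 calls was lost without 1 library. All genes together had 384883, 1596943, 1434847 and 1335503 UMIs in members and 470822, 14614, 18714 and 126402 in interferon-high cells. The 0 counts of Ngp in OE-MLKL 1 and 2 thus rest on far fewer UMIs. Ccl3 had 543, 310, 301 and 182 scaled CPM in members against 5902, 1459, 1025 and 1458 (log2 fold change -2.75 ± 0.22, SE; edgeR Benjamini-Hochberg adjusted p = 1.8e-33). The p-values of this fit rest on a spread pooled over genes. They do not measure the spread of Ccl3 itself between the 4 libraries. The low Ccl3 of members was found against both other states.

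Within the members, the levels of several genes followed the 4-gene share in steps, which is given without a test. In plain CPM, as the mean of the 4 libraries, Retnlg went from 1082 in other neutrophils to 9245, 22067 and 51531 in members at 1 to 2%, 2 to 4% and 4% or more, while Mmp8 went from 370 to 1136, 1535 and 2132. Retnlg holds most of the 4-gene UMIs, so its steps largely restate the ranges. Outside the rule, Lcn2 went from 1405 to 2603, 3479 and 4550, and Ifitm6 from 94.0 to 254, 510 and 1031, with a step up in each library. The mean of Ngp went from 68.7 to 302, 557 and 926 CPM, but OE-MLKL 1 held most of it, at 191, 935, 1733 and 2309, while OE-MLKL 3 hardly moved at first (4.48 and 5.44). OE-Vector 1 stood at 1.21, 24.3, 18.0 and 146, but its members held 12 Ngp UMIs in all, too few to show a direction between ranges. In the other direction Ccl3 went from 1379 to 304, 181 and 80.9 CPM, with a step down at each range except in OE-MLKL 3, where both middle ranges stood at 163. Chil3 went from 5041 to 4071, 3327 and 2397 and Il1b from 9722 to 9684, 8482 and 7758, though OE-Vector 1 held at most 58.7 CPM of Chil3 in any range and the first step of Il1b was upward in OE-Vector 1 and OE-MLKL 1. Plain CPM count the genes of the rule in the total, and mean S100a9 went from 31396 to 66116, 84006 and 105604. Such a rise lowers the CPM of all other genes, so the steps of Il1b show no fall outside the rule. In the fit without these genes Il1b was called higher in members, a call lost under 6 of 17 alternatives. Wfdc17 stepped down within the members of OE-Vector 1, where it stood at 2020, 1766 and 1610 CPM in the 3 member ranges, the last over only 16 cells, and rose with the share in OE-MLKL 1 and 2. Camp, the cathelicidin of young neutrophils, was near 0, with 128 CPM at most, in OE-MLKL 1 at 1 to 2%.

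**Figure D4:**
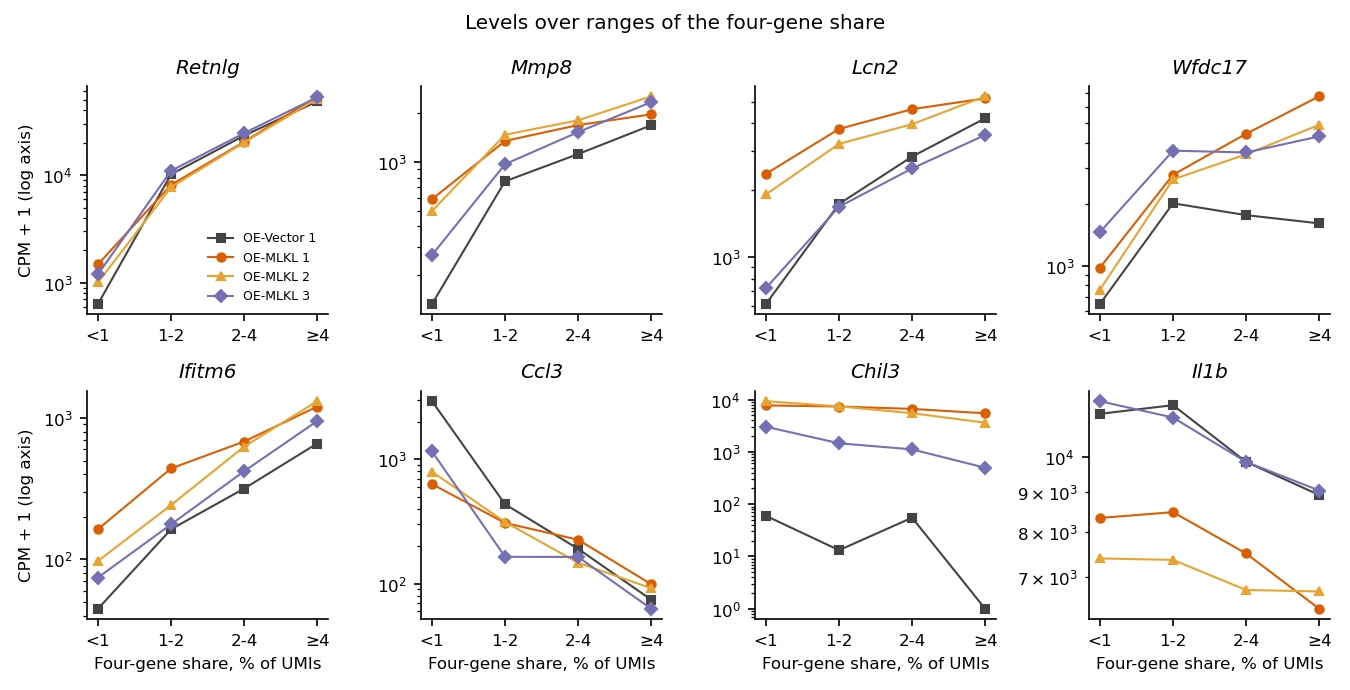
Plain CPM plus 1 (log axis) of 8 genes in other neutrophils (below 1%) and in members by range of the 4-gene share, 1 line per library; the top range of OE-Vector 1 holds 16 cells. Lcn2 and Ifitm6 lie higher with a higher share and Ccl3 lower, while Chil3 is separated by library.

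The comparison of the study, OE-MLKL against OE-Vector, was then made within the members. Chil3 and Ngp were at higher levels in members of the libraries labelled OE-MLKL, and most genes of glycolysis, hypoxia and the interferon response at lower levels, but 0 of 8736 genes passed a Benjamini-Hochberg adjusted p of 0.05 by edgeR (0.0% called). At an unadjusted p under 0.05 there were 781 genes, DESeq2 called 19 and limma-voom 0. The genes of the rule were kept in this fit, and Isg15, whose level the rule limits, was among the genes called by DESeq2. With 1 OE-Vector library the spread comes from the OE-MLKL libraries alone, and the lone library was assumed to vary like them. The count rested on single libraries: it was 1061 without OE-MLKL 3, 33 without OE-MLKL 1 and 2 without OE-MLKL 2. OE-MLKL 3 was the OE-MLKL library nearest to OE-Vector 1 in 49.7% of genes, OE-MLKL 1 in 23.5% and OE-MLKL 2 in 26.8%. The median log2 fold change of all genes was 0.14, and 0.50 with scaling by library size alone.

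Of genes tested, 65.5% had their OE-Vector value beyond the OE-MLKL libraries, 29.3% above all 3 and 36.2% below. Chil3 had 28.5 scaled CPM in OE-Vector 1, against 6309, 5912 and 1083 in OE-MLKL 1, 2 and 3, from 9, 10778, 8980 and 1500 UMIs (log2 fold change 7.28 ± 1.35, SE; edgeR Benjamini-Hochberg adjusted p = 0.52). Ngp had 38.0 against 1383, 389 and 80.9, and Prnp, the prion protein, 25.3 against 779, 554 and 122. Klhl6, an adaptor of ubiquitin ligases, had 12.7 against 379, 365 and 86.0, Id2, an inhibitor of helix-loop-helix factors, 25.3 against 492, 432 and 94.6, and Gm36723, a gene without a known role, 3.17 against 97.2, 109 and 26.0. In all 6 the lowest OE-MLKL value was that of OE-MLKL 3. In other neutrophils Chil3 stood at 58.7 plain CPM in OE-Vector 1 against 7754, 9326 and 3027 in OE-MLKL 1, 2 and 3. Ngp stood there at 1.21 against 191, 78.1 and 4.48, so the differences of these genes were not particular to members. Chil3 was called under 5 of 16 alternatives, DESeq2 among them. The secondary granule list as a whole did not share this, with OE-Vector below all OE-MLKL libraries in 5 of 13 genes and above all in 4, and a median log2 fold change of 0.29 against 0.14 over all genes.

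On the other side Ifi27l2a, an interferon-induced gene, had 1463 scaled CPM in OE-Vector 1 against 15.2, 17.1 and 125 in OE-MLKL 1, 2 and 3 (log2 fold change -4.81 ± 0.96, SE; edgeR Benjamini-Hochberg adjusted p = 0.52). Il15, a cytokine of NK and T cells, had 177 against 11.1, 17.8 and 43.3, Rtp4, a chaperone induced by interferon, 592 against 27.5, 50.7 and 165, and Dgat1, which makes triglycerides, 887 against 60.9, 44.1 and 251. Basp1, a membrane-associated signalling protein, had 1077 against 19.9, 36.9 and 365, and Gm34084 374 against 16.4, 17.1 and 93.9. Here too OE-MLKL 3 lay between OE-Vector 1 and the other OE-MLKL libraries in each gene. Dgat1 was highest in OE-Vector 1 in other neutrophils too, at 271 scaled CPM against 55.9, 55.1 and 168.

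As lists, 17 of 18 glycolysis genes had an OE-Vector level above all OE-MLKL libraries, with a median log2 fold change of -1.47, and 10 of 12 hypoxia genes, with a median of -1.54. Pgk1, a glycolytic kinase, had 744 scaled CPM against 89.6, 125 and 233, Tpi1, an isomerase, 415 against 74.3, 86.9 and 103, and Slc2a3 871 against 87.8, 108 and 274. Slc2a3 was also highest in OE-Vector 1 among other neutrophils, as given above. Among hypoxia genes Ankrd37 had 133 against 24.0, 23.04 and 31.1 and Ero1l, an oxidase of protein folding, 304 against 52.7, 49.4 and 78.0. Of 22 type I interferon genes 21 had their highest level in OE-Vector 1, with a median log2 fold change of -1.37, although the rule removed the strongest interferon cells, which were mostly in OE-Vector 1. None of these lists had a gene called by edgeR.

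**Figure D5:**
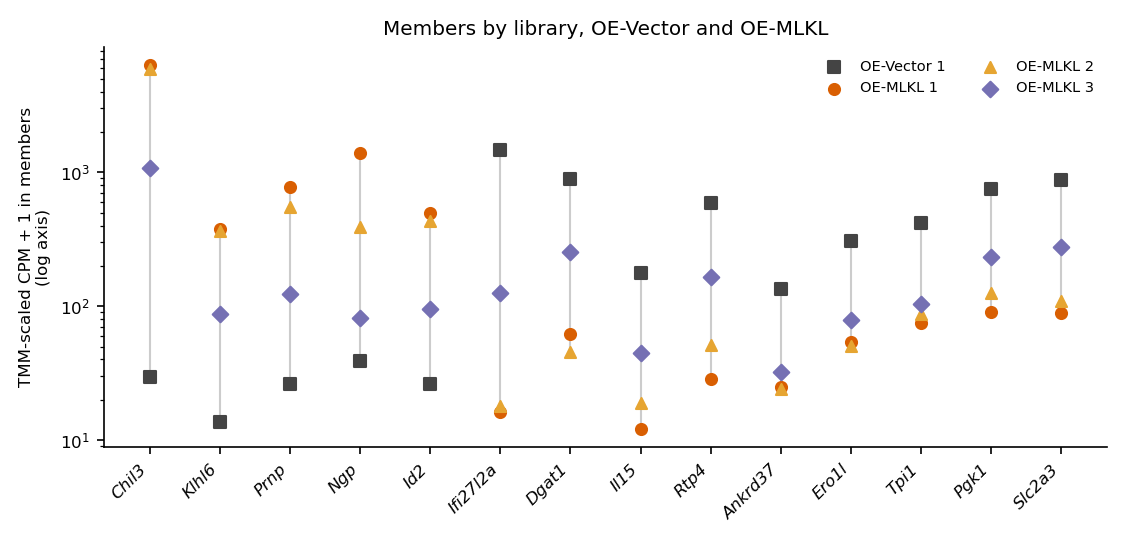
TMM-scaled CPM plus 1 (log axis) in members of each library for 14 genes named in the comparison of the labels; each symbol is 1 library and the line spans the 4 values. For 5 genes OE-Vector 1 is lowest, and for 9 it is highest, and OE-MLKL 3 is the OE-MLKL library nearest to it for all 14.

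Other values moved with this contrast. The OE-Vector level was above all OE-MLKL libraries in 29.3% of all genes tested. It was so in 2 of 2 tested nuclear-retained RNAs and in 12 of 16 immediate early and heat shock genes. In plain CPM the nuclear-retained sum of OE-Vector 1, 20890, lay within the 11729, 11387 and 25032 of OE-MLKL 1, 2 and 3. Ribosomal protein genes had log2 fold changes above 0 in 16 of 16, with a median of 0.43, and the OE-Vector level was below all OE-MLKL libraries in 5 of them, a share near the 36.2% of all genes. Their sum was 8907 CPM in the members of OE-Vector 1, against 20914, 16597 and 9014 for OE-MLKL 1, 2 and 3, so that OE-MLKL 3 was again next to OE-Vector 1, and the 2 libraries with the deeper members were those with the lower sum. Genes that were higher in members did not follow the labels in 1 way. Lcn2 had 2711 scaled CPM in OE-Vector 1 against 4055, 3560 and 2306, and Cstdc4 2620 against 1681, 2722 and 1432, both within the OE-MLKL range. Ly6g had 212 against 13.5, 30.9 and 125, above all OE-MLKL libraries, as were 14 of 18 genes of neutrophil identity (median log2 fold change -0.76) and 16 of 19 of mature circulating neutrophils (median -0.79). With counts thinned to 500 UMIs 0 of 6328 genes were called, and with at least 1000 UMIs per cell 0 of 6545. Sums of some markers of other cells, in plain CPM, differed with the contrast too. In members of OE-Vector 1 the sums of macrophage (1026 CPM), monocyte (314), fibroblast (54.6), endothelial (5.20) and dendritic cell markers (0) were below those of all 3 OE-MLKL libraries, fibroblast markers standing at 157, 105 and 155 there. The eosinophil, basophil and mast cell sum was also below all, at 12.99 against 34.4, 14.6 and 21.7. B cell markers were above all, at 109 against 8.14, 27.2 and 51.7. In scaled CPM the OE-Vector level was below all 3 for 1 of 9 tested macrophage markers and above all for 2. It was below all for 2 of 4 monocyte and 3 of 6 fibroblast markers, and above all for 0 of either. Acinar genes had log2 fold changes above 0 in 6 of 7 tested (median 2.79), with the OE-Vector sum of 26.0 CPM between the 6.74 of OE-MLKL 3 and the 99.7 and 281 of the others. The part of ribosomal content, of nuclear-retained and heat shock genes and of these markers in the values was not tested beyond the alternatives without scored doublets and without cells holding UMIs of other lineages.

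Whether the difference between members and other neutrophils was the same in the OE-Vector library and the OE-MLKL libraries was asked by an interaction term. The spread comes from the OE-MLKL libraries alone and the single OE-Vector library was assumed to vary like them, so a difference that passed is one from this library. Of 10617 genes 19 passed an adjusted p of 0.05 in the edgeR quasi-likelihood test (0.179%), 13 with a member-minus-other difference more positive in the OE-MLKL libraries (0.122%) and 6 with one less positive (0.0565%). Ccl4 had 488 scaled CPM in members and 3094 in other neutrophils of OE-Vector 1, against 287 and 311, 251 and 406, and 305 and 912 in OE-MLKL 1, 2 and 3. The interaction was 1.86 ± 0.31 on the log2 scale (SE; edgeR Benjamini-Hochberg adjusted p = 0.0028), a call lost in DESeq2 (adjusted p = 0.81), and the fall was steepest in OE-Vector 1. Cxcl2 was lower in members than in other neutrophils of OE-Vector 1, at 10598 and 12616, and higher in members in all 3 OE-MLKL libraries, at 11088 and 6888, 6366 and 4175, and 13235 and 7963. Ifitm3 went the other way, with 3631 and 1171 in OE-Vector 1, against 784 and 705, 912 and 711, and 1551 and 896 in the OE-MLKL libraries. The count was 218 without OE-MLKL 3 and 10 without OE-MLKL 2.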

How the data were processed

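Droplet-based single-cell RNA sequencing (10x Genomics 3' chemistry) was made of whole dissociated orthotopic KPC tumours. The authors deposited unfiltered matrices of UMI counts per barcode and gene, not normalized, and those of 4 of the 6 labelled libraries were analysed here. The matrices name Cell Ranger 7.1.0, the submitters' processing notes name Cell Ranger 2.1.1, and the study's methods name a version different from both. Which version made the matrices was not settled. The build is mm10. Of 32285 gene IDs, 32158 matched the GENCODE vM21 annotation.

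Barcodes counted as cells where they held 500 UMIs or more, over 200 detected genes and less than 10% of UMIs from mitochondrial genes. No cells were removed as doublets in the values reported, and doublets were scored against simulated ones (10 components, 20 neighbours, 2000 variable genes, 0.8% per 1000 cells) for an alternative. The members and gene lists were chosen with earlier results of these data known. UMI counts were summed per library and state and tested with the edgeR 4.0.16 quasi-likelihood test (TMM scaling, filterByExpr, Benjamini-Hochberg adjustment, threshold 0.05) in R 4.3.3. Members and other neutrophils were compared with the library as a term and without the genes of the rule. OE-MLKL and OE-Vector were compared within members, 3 libraries against 1, with the genes of the rule kept. They were also compared by a state-by-group term without these genes. Shares of cells were compared by exact two-sided permutation tests with scipy 1.17.1. DESeq2 1.42.0, limma 3.58.1 (voom), other scalings, filters, limits of the rule and sets of cells or libraries were alternatives. Scripts were tested on simulated data.

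Named were the 12 genes with the largest rise and the 12 with the largest fall among genes past the threshold, changed the same way in 4 of 4 libraries and with a mean of at least 50 CPM; up to 4 genes of each list with the highest mean CPM; between the labels, the 6 genes on each side with the largest fold change, a mean of at least 50 CPM and an OE-Vector value outside the OE-MLKL range; and at most 6 interaction genes. Other genes were named after their values were seen. Intervals cover counting error only. Some genes are not reported here.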

Additional observations from a re-analysis of the deposited data

Results flagged for a closer look

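For 19 genes the difference between members and other neutrophils differed between the OE-Vector library and the OE-MLKL libraries by the interaction term of the edgeR quasi-likelihood test. The 6 with the smallest p are given as the OE-MLKL minus the OE-Vector difference on the log2 scale. Ccl4 had an interaction of 1.86, Cstb of 1.33, Cxcl2 of 0.93 and Fth1, the ferritin heavy chain, of 0.88. Ifitm3 had an interaction of -1.19 and Dgat1 of -1.45. Fth1 stood at 21308 scaled CPM in members and 28997 in other neutrophils of OE-Vector 1, and was higher in members in all 3 OE-MLKL libraries. Dgat1 stood at 1111 and 271 in OE-Vector 1, against 78.5 and 55.9, 56.9 and 55.1, and 323 and 168 in OE-MLKL 1, 2 and 3. The call was lost in DESeq2 for Ccl4 and Fth1, with a 4-gene share of at least 0.5% for Cxcl2, Fth1 and Dgat1, without cells holding UMIs of other lineages for Cxcl2, Fth1, Ifitm3, Dgat1 and Cstb, and with thinned counts for Dgat1. The OE-Vector difference comes from 1 library in each case, assumed to vary like the others.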

How the results depend on the processing

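Of the 1652 genes called between members and other neutrophils, the count became 2665 with scaling by library size alone, 993 with counts thinned to 500 UMIs and 417 without cells holding UMIs of other lineages, and lay between 717 and 1643 with 1 library left out, lowest without OE-MLKL 3 and 976 without OE-MLKL 2. Without the library as a block it was 0, with 854 genes at an unadjusted p under 0.05. Against interferon-high neutrophils the 493 calls became 101 without the library block and 122 to 568 with 1 library left out (122 without OE-Vector 1, 156 without OE-MLKL 3). Between OE-MLKL and OE-Vector the 0 calls became 19 in DESeq2, 24 with no filter on low counts and 1 without cells holding UMIs of other lineages, and 2 to 1061 with 1 library left out. The 19 interaction calls became 5 in DESeq2, 46 with no filter, 29 and 8 with a 4-gene share of at least 2% and 0.5%, 44 with scored doublets removed, 3 without cells holding UMIs of other lineages, and 10 to 218 with 1 library left out. The difference in the share of all cells, 5.07 percentage points, was 1.96 at 1000 UMIs or more. Cxcr4, not called, changed sign to 0.0090 with a share of at least 0.5% and to 0.042 without OE-MLKL 3, and lay between -0.20 and 0.04 with 1 library left out. The cause was not tested. No paired analysis between OE-MLKL and OE-Vector was made, because the study's methods describe separate tumours and the labels name no pairs. A difference between the labels rests on 1 OE-Vector library with 254 members, and genes of low level could not be tested at this depth.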
